A study of Homo sapiens with 6 samples.

Results

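Prostaglandin E2 is made in 3 steps, and 10 genes that carry these steps or handle the product were examined after knockdown of NFKBIZ in LOX-IMVI, a long established cell line from a human melanoma. The genes were PLA2G4A, PTGS1, PTGS2, PTGES, PTGES2, PTGES3, ABCC4, HPGD, PTGER2 and PTGER4, which are 10 of the 47432 genes counted in each library. They were found by their symbol, each in 1 row, and the set was chosen by what it encodes and with the exon read values of this contrast known, PTGES being one of the largest falls. The values of the 10 genes are therefore given as a description, and no p-value is printed for them.

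Phospholipase A2 frees arachidonic acid from membrane lipids. The cyclooxygenases convert it to prostaglandin H2, and the prostaglandin E synthases turn this into prostaglandin E2, which leaves the cell in part through a transporter and acts on receptors of the cell surface. In both of the latter enzyme families an inducible enzyme, switched on by inflammatory signals such as IL-1, stands beside constitutive ones that most cells hold at a steady level. Prostaglandin E2 made by melanoma cells is known for dampening anti-tumor immunity.

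The 6 libraries came from cells grown in medium with 10% FCS that had been transduced with a lentiviral pLKO.1 vector and selected with puromycin. The vector held either a control short hairpin RNA (shCtrl, n = 3) or a single hairpin against NFKBIZ (shNFKBIZ, n = 3), so that an effect of the hairpin on other transcripts cannot be told apart from that of the knockdown. NFKBIZ encodes IκBζ, a nuclear co-regulator of NF-κB and STAT factors. The study describes 3 independent experiments per condition, but the labels only number the libraries. The labels name no treatment with an agent that would induce the pathway.

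Each library held 22264473 to 24624839 reads in exons and 1812526 to 1975528 in introns. NFKBIZ was at 41.4, 42.9 and 49.2 TPM (transcripts per 1000000, a level corrected for gene length) in shCtrl and at 13.7, 14.1 and 13.3 TPM in shNFKBIZ libraries. Its exon log2 fold change was -1.78. Of 8 melanocyte lineage markers, 7 stayed under 1 TPM in every library, and MLANA, SOX10 and S100B had no exon read at all. Only MITF was above, at 3.21 ± 0.373 TPM in shCtrl and 2.00 ± 0.241 TPM in shNFKBIZ (SD, n = 3). AXL, SOX9 and EGFR, markers of dedifferentiated melanoma cells, were abundant, and the summed level of that list was 447 to 492 TPM in shCtrl and 602 to 614 TPM in shNFKBIZ libraries. SOX9 rose past the threshold, from 21.6 ± 0.729 to 55.1 ± 2.03 TPM (SD, n = 3), and EGFR went from 39.6 ± 1.72 to 66.2 ± 1.76 TPM. NGFR, the remaining one of the list, stayed below 0.113 TPM. Of 7 markers of blood, epithelial and endothelial cells, 6 stayed under 1 TPM, with CD3E at 0 reads. The exception was KRT14, at 0.570 ± 0.228 TPM in shCtrl and 1.59 ± 0.228 TPM in shNFKBIZ, which also rose past the threshold. Its summed exon reads were few, 24 in shCtrl and 63 in shNFKBIZ. The list summed to 0.873 to 1.49 TPM in shCtrl and 1.73 to 2.18 TPM in shNFKBIZ libraries. The part of these marker shifts in the results was not tested.

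The upstream sequences of the 3 synthesis genes that were lower in shNFKBIZ cells are shown first, because the values turn on these genes. Each is the 250 bases before the RefSeq start site on GRCh38.p14, read 5′ to 3′ along the gene. Capitals mark matches to 6 motifs on either strand, which are spelled out after the sequences.
PTGES (chr9:129753043-129753292, minus strand): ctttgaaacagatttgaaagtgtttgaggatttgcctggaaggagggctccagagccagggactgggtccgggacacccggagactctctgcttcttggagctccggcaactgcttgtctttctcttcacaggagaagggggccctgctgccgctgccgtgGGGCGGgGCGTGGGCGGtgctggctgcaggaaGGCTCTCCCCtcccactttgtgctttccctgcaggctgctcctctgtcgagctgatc
PTGS2 (chr1:186680424-186680673, minus strand): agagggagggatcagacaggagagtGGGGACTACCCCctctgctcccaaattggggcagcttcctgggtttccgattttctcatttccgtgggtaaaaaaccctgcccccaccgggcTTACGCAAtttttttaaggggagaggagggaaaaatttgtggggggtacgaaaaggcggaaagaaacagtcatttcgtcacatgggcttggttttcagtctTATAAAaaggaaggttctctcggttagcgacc
PLA2G4A (chr1:186828699-186828948, plus strand): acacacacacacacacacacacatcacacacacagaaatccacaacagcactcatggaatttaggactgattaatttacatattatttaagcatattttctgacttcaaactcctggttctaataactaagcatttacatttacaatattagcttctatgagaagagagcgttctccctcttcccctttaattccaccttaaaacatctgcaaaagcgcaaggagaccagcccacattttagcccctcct

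The motifs were searched in the same 250 bases of all 35116 RefSeq start sites. For NF-κB the letters were GGGNNNNNCC, which 54.4% of these windows held, so that its presence singles out no gene. The GC box, GGGCGG, was found in 42.6% of windows. The TATA box was searched as TATAAA, which 10.7% of windows held. The EGR motif was GCGNGGGCG, held by 8.41%. For STAT factors TTCNNNGAA was used, with 6.57%, and for C/EBP factors TTNCGNAA, with 2.18%.

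The PTGES window held no TATA box. It held an EGR match 82 to 74 bases before the start, which overlaps the second of 2 GC boxes, and an NF-κB match 57 to 48 bases before it. The EGR match was not particular to PTGES. The same letters lay in a PTGES2 window, 147 to 139 bases before its start. EGR matches also lay in the PTGER2 window, at 151 to 143 and at 53 to 45. The PTGS2 window held 3 overlapping NF-κB matches between 225 and 214 bases before the start, a C/EBP match at 133 to 126 and a TATA box at 32 to 27. No motif was matched in the PLA2G4A window, whose GC content was 38.8% against 61.2% for PTGES and 50.4% for PTGS2. These matches are letters in a window and were not measured as binding sites. For PTGS2 the gene model of the deposited tables begins 499 bases further upstream, so that its window lies within the counted gene, while for PTGES and PLA2G4A both starts coincide.

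The genes were compared on total exon reads with the quasi-likelihood test of edgeR, and the threshold was a fold change of at least 2 together with an adjusted p no higher than 0.05. Of the 10 genes, 7 had enough reads to be tested. PTGES and PTGS2 were past the threshold, both lower in shNFKBIZ cells, and none was higher. Over all 13843 genes tested 8.96% were past it, 5.12% lower and 3.84% higher. PLA2G4A and ABCC4 were also lower with an adjusted p under the limit, but by less than 2-fold, which makes 4 of 7 at any fold change where 65.3% of all genes were called. Because the genes were selected on this contrast, nothing is read from these shares. In bulk RNA, fewer cells that express a gene and less of its RNA per cell cannot be told apart. PTGES2, PTGES3 and PTGER4 were not called, and PTGS1, HPGD and PTGER2 had too few reads for a test. The median log2 fold change of the 7 genes was -0.32, beside 0.00 for all genes.

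**Figure D1:**
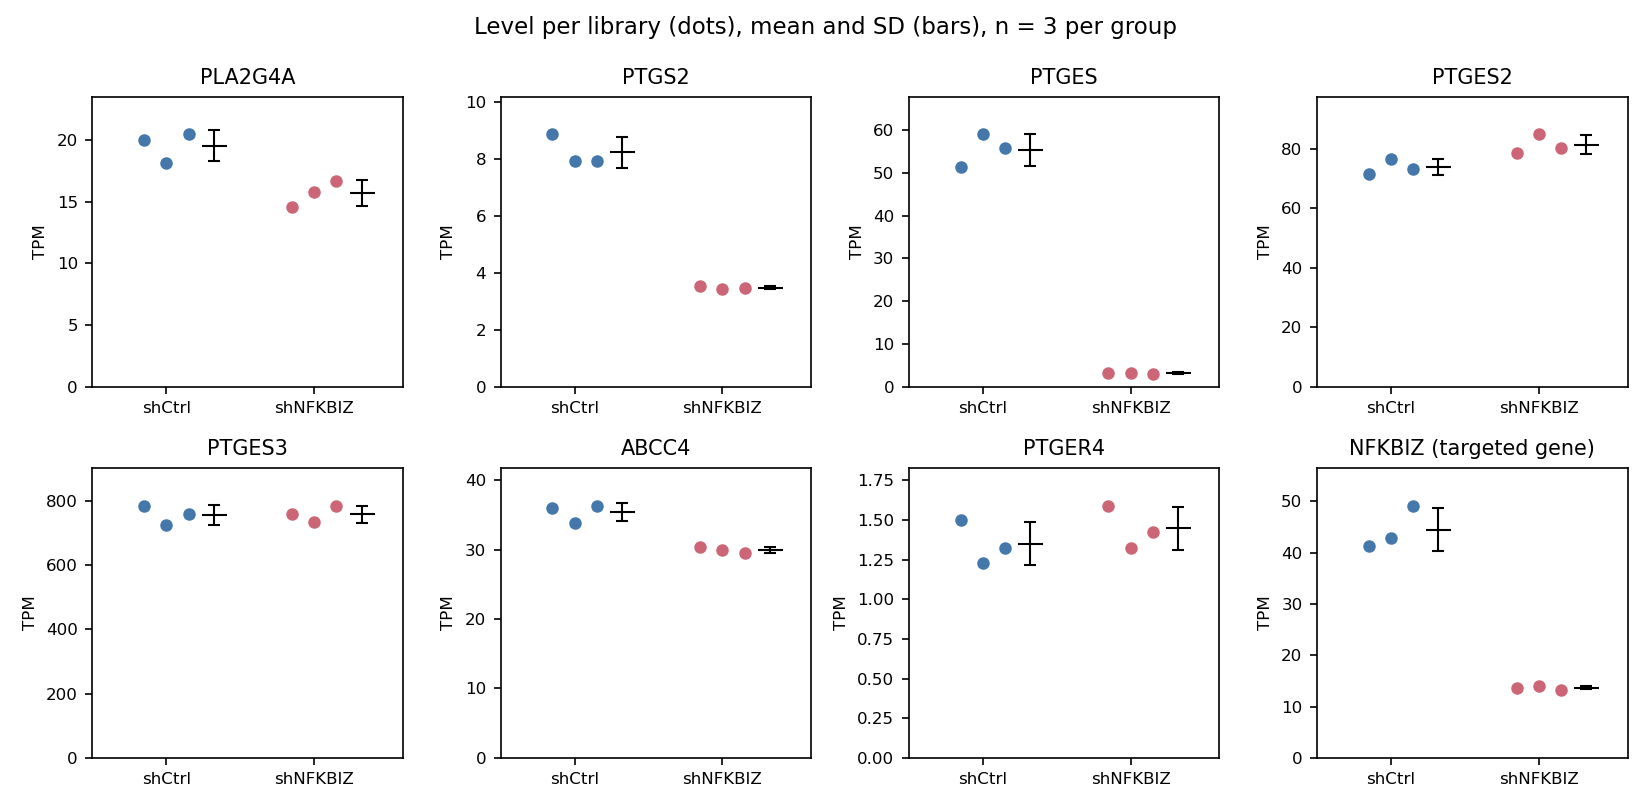
Level in TPM (vertical axes, each from 0) of the 7 tested genes and of NFKBIZ in shCtrl (blue) and shNFKBIZ (red) libraries. Each dot is a library, and bars give mean and SD of 3 libraries. PTGES fell from between 51.5 and 59.0 TPM to between 2.84 and 3.25 TPM, while the PTGES3 ranges of both groups overlapped.

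PLA2G4A (ENSG00000116711, chr1:186828949-186988981, plus strand, hg38) encodes cytosolic phospholipase A2α, the calcium-dependent enzyme that releases arachidonic acid. It was at 20.1, 18.2 and 20.5 TPM in shCtrl and at 14.6, 15.8 and 16.7 TPM in shNFKBIZ libraries. All 3 knockdown libraries were below all controls. The log2 fold change was -0.40 (SE 0.0807), a fall of less than 2-fold. On exon-exon junction reads alone, which stem from spliced RNA, the difference was smaller, with a log2 fold change of -0.23 and 429 summed reads in shCtrl against 358 in shNFKBIZ. The ratio of these sums, scaled by the library totals, was 0.880 with an exact 95% interval of 0.763 to 1.01. This ratio leaves out the TMM factors that the log2 fold change includes, so the 2 are on different scales. In the fit on these reads PLA2G4A missed the adjusted p limit.

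PTGS2 (ENSG00000073756, chr1:186671791-186680922, minus strand) encodes cyclooxygenase-2, the inducible cyclooxygenase. Its levels were 8.86, 7.92 and 7.90 TPM in shCtrl, from 302, 279 and 250 exon reads. In shNFKBIZ libraries they were 3.55, 3.42 and 3.46 TPM, from 114, 108 and 113 reads. The groups lay far apart, and the spread within each was small. The log2 fold change was -1.32 (SE 0.0990), or 2.50-fold lower. Junction reads gave 125 against 45 in sum, a ratio of 0.380 (exact 95% interval 0.264 to 0.538).

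PTGS2 and PLA2G4A are neighbours on chromosome 1, with 148 kb between them. PACERR, an antisense RNA, begins inside PTGS2, shares 322 bases with it and is the only other counted gene whose start lies between those of the pair. Because reads were counted without regard to strand, those in this stretch cannot be assigned with certainty. Exon reads of PACERR numbered 6, 1 and 5 in the shCtrl and 7, 8 and 5 in the shNFKBIZ libraries, a ratio of 1.76 with an exact 95% interval of 0.818 to 3.94. No difference of PACERR was therefore detectable at this depth, and its reads were few beside those of PTGS2.

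PTGS1 (ENSG00000095303, chr9:122370530-122395703, plus strand) encodes cyclooxygenase-1, the constitutive enzyme. Its exon reads numbered 1, 0 and 1 in shCtrl, and there were none in any shNFKBIZ library. A floor of 3 reads per library corresponds to 0.0807 to 0.0902 TPM, and PTGS1 was below it in each, so no fold change is given. PTGS2 thus made up 99.7, 100 and 99.6% of the cyclooxygenase TPM in shCtrl and 100% in each shNFKBIZ library. The difference of 0.230 percentage points (SE 0.117) rests on 2 reads of PTGS1.

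PTGES (ENSG00000148344, chr9:129738331-129753042, minus strand) encodes microsomal prostaglandin E synthase-1, the inducible synthase that works together with cyclooxygenase-2. It was at 51.5, 59.0 and 55.8 TPM in shCtrl libraries, from 605, 717 and 608 exon reads. In shNFKBIZ libraries it was at 3.25, 3.22 and 2.84 TPM, from 36, 35 and 32 reads. Every knockdown library was far below every control. The log2 fold change was -4.24 (SE 0.106), which is 18.8-fold lower, and the alternatives kept it between -4.28 and -3.87. All exon reads were unique. Junction reads fell alike, from 59, 66 and 59 to 3, 3 and 6.

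PTGES2 (ENSG00000148334, chr9:128120693-128128462, minus strand) encodes microsomal prostaglandin E synthase-2, a constitutive enzyme whose gene lies 1.61 Mb from PTGES. It was at 71.5, 76.7 and 73.1 TPM in shCtrl and at 78.6, 84.8 and 80.4 TPM in shNFKBIZ libraries. In TPM the groups did not overlap and shNFKBIZ was higher, but the median tested gene was also higher by 0.09 on the log2 scale in TPM. With TMM factors, which correct for this shift, the PTGES2 libraries overlapped and the log2 fold change was 0.06 (SE 0.0399), not past the adjusted p limit. With library size alone it was 0.15 (SE 0.0399) and past that limit, beside a median of 0.09 for all genes under this scaling.

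PTGES3 (ENSG00000110958, chr12:56663341-56688408, minus strand) encodes cytosolic prostaglandin E synthase, also known as p23, a co-chaperone of HSP90. It was the most abundant of the 10 genes, at 784, 725 and 759 TPM in shCtrl and 759, 733 and 785 TPM in shNFKBIZ. In TPM most of both ranges overlapped. On the TMM scale 2 of the 3 knockdown libraries were below every control, and the log2 fold change was -0.08 (SE 0.0386), which became 0.01 with library size as the only scaling. It missed the adjusted p limit, but was within it with a replicate block and without the second shCtrl or the third shNFKBIZ library, at -0.08, -0.10 and -0.11. RN7SL809P, which lies within PTGES3, held 1 to 6 exon reads per library, and no PTGES3 pseudogene was among the counted genes.

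Across the 7 tested genes, 5 did not overlap between the groups in TPM, where 69.5% of all genes did not. On the TMM scale 4 did not, where the share of all genes was 68.7%.

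The balance of the 3 prostaglandin E synthases was followed within each library. PTGES took 5.67, 6.85 and 6.28% of their summed TPM in shCtrl and 0.387, 0.392 and 0.328% in shNFKBIZ. The mean share went from 6.27 ± 0.591% to 0.369 ± 0.0358% (SD, n = 3), a difference of -5.90 percentage points (SE 0.342). An exact permutation test of 3 against 3 libraries cannot go below 0.1, and none was run on this share, which contains the value the genes were selected on. PTGES2 was 1.33 ± 0.0494 times as abundant as PTGES in shCtrl and 26.3 ± 2.04 times in shNFKBIZ cells. The order of the inducible enzymes also turned, since PTGES was 6.77 ± 0.857 times the TPM of PTGS2 in shCtrl and 0.892 ± 0.0627 times in shNFKBIZ cells.

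**Figure D2:**
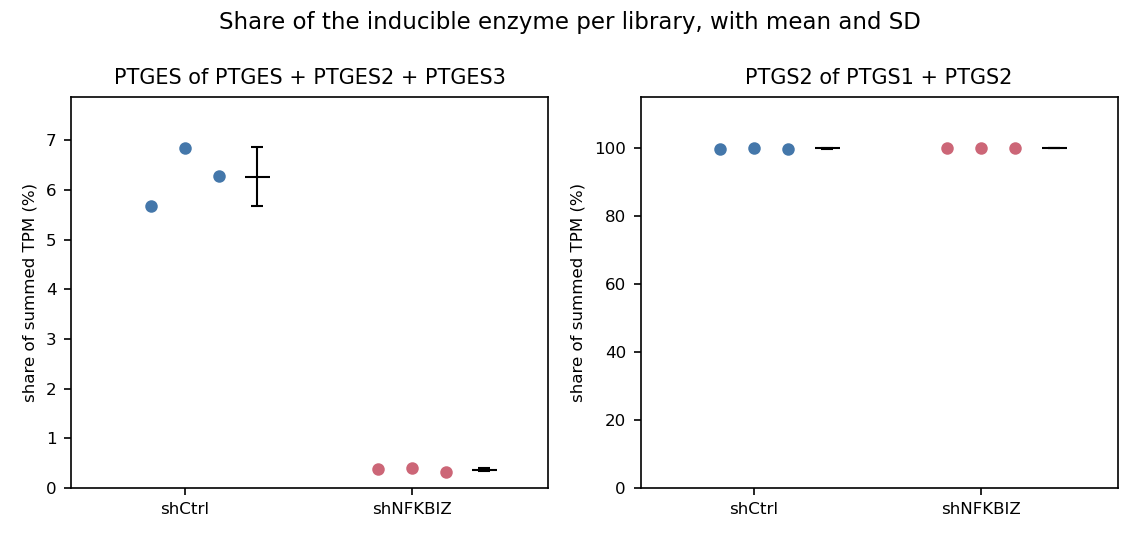
Share of the inducible enzyme in the summed TPM (vertical axes, percent, from 0) of the prostaglandin E synthases (left) and of the cyclooxygenases (right). Dots are libraries and bars give mean and SD of 3 libraries. PTGES went from 6.27% to 0.369%, whereas PTGS2 stayed above 99.6% in every library.

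ABCC4 (ENSG00000125257, chr13:95019835-95301475, minus strand) encodes MRP4, a transporter that exports prostaglandin E2 among other anions. It was at 36.0, 33.9 and 36.3 TPM in shCtrl and at 30.4, 30.0 and 29.5 TPM in shNFKBIZ libraries. The groups did not overlap. The log2 fold change was -0.32 (SE 0.0421), and junction reads gave a ratio of 0.831 (exact 95% interval 0.780 to 0.886).

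HPGD (ENSG00000164120, chr4:174490175-174523154, minus strand) encodes the 15-hydroxyprostaglandin dehydrogenase that inactivates prostaglandin E2. It had 0 exon reads in all 6 libraries, which allows a level of up to 0.0844 to 0.0943 TPM per library. PTGER2 (ENSG00000125384, chr14:52314305-52328598, plus strand) encodes the EP2 receptor and likewise had 0 reads in every library, which allows up to 0.189 to 0.212 TPM. These limits cover counting error only.

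PTGER4 (ENSG00000171522, chr5:40679915-40693735, plus strand) encodes the EP4 receptor, which like EP2 raises cyclic AMP. It was at 1.50, 1.23 and 1.32 TPM in shCtrl and at 1.59, 1.32 and 1.42 TPM in shNFKBIZ libraries. The groups overlapped. Summed exon reads were 88 and 90, a ratio of 1.08 with an exact 95% interval of 0.794 to 1.46, so no difference was detectable within these bounds. With TMM factors the log2 fold change was 0.02 (SE 0.228). The gene lies entirely within TTC33, which is on the other strand, and unstranded reads of both cannot be told apart. Over the 6 libraries PTGER4 exons held 50.2 reads per kb, its introns 4.09 and the TTC33 introns 1.83. TTC33 itself had a log2 fold change of -0.48 (SE 0.0693).

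In shCtrl cells the order of levels was PTGES3, PTGES2, PTGES, ABCC4, PLA2G4A, PTGS2 and PTGER4, and no range of 3 libraries touched the next one. In shNFKBIZ cells PTGES moved from the third to the sixth place, just below PTGS2, at 2.84 to 3.25 against 3.42 to 3.55 TPM. These 2 ranges were the closest pair, and the other genes kept their order. PTGS1, HPGD and PTGER2 could not be ordered among themselves.

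Intron reads, which come mostly from RNA not yet spliced, were fitted alone as a second readout of the same libraries. Of the 10 genes 5 had enough of them, and PTGES alone was past the threshold, beside 6.6% of all genes tested on introns. PTGES had 27, 18 and 16 intron reads in shCtrl and 3, 1 and 1 in shNFKBIZ. It therefore met the read filter only through the shCtrl libraries, and it had been selected on its exon fall in the same data. The intron call is thus a description and no independent support. The log2 fold change was -3.60 (SE 0.491), or -4.29 without the first shNFKBIZ library, and the ratio of the sums was 0.0801 with an exact 95% interval of 0.0251 to 0.197. Introns contributed 3.06% of the PTGES gene reads in shCtrl (exact 95% interval 2.35 to 3.92%) and 4.63% in shNFKBIZ (1.52 to 10.5%), and these intervals overlapped.

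The other 4 genes did not reach the adjusted p limit on introns. The share of all genes within that limit on introns was not counted, so nothing is read from this. PLA2G4A had a log2 fold change of 0.01 (SE 0.248) from 73 and 78 summed intron reads, ABCC4 -0.11 (SE 0.0847), PTGES2 0.01 (SE 0.204) and PTGES3 0.09 (SE 0.0730). PTGS2 had only 3 intron reads in sum in each group, a ratio of 0.978 with an exact 95% interval of 0.131 to 7.30, which cannot show a fall of the size seen in exons.

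Exon and intron changes were set against each other as an interaction, with each library as a block. None of the 5 genes was past the threshold, beside 2.67% of all genes. None of the 5 was below an adjusted p of 0.05 at any size either, but the share of all genes at any size was not counted. By edgeR 1 of them, ABCC4, was under 0.05 before the adjustment but not after it. The share of all genes under 0.05 without adjustment was not counted, so nothing is read from this. For PTGES the exon change minus the intron change was -0.54 (SE 0.735), and it became 0.17 (SE 0.935) without the first shNFKBIZ library. It was -0.39 (SE 0.253) for PLA2G4A, -0.20 (SE 0.0897) for ABCC4, -0.15 (SE 0.0769) for PTGES3 and 0.06 (SE 0.199) for PTGES2.

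**Figure D3:**
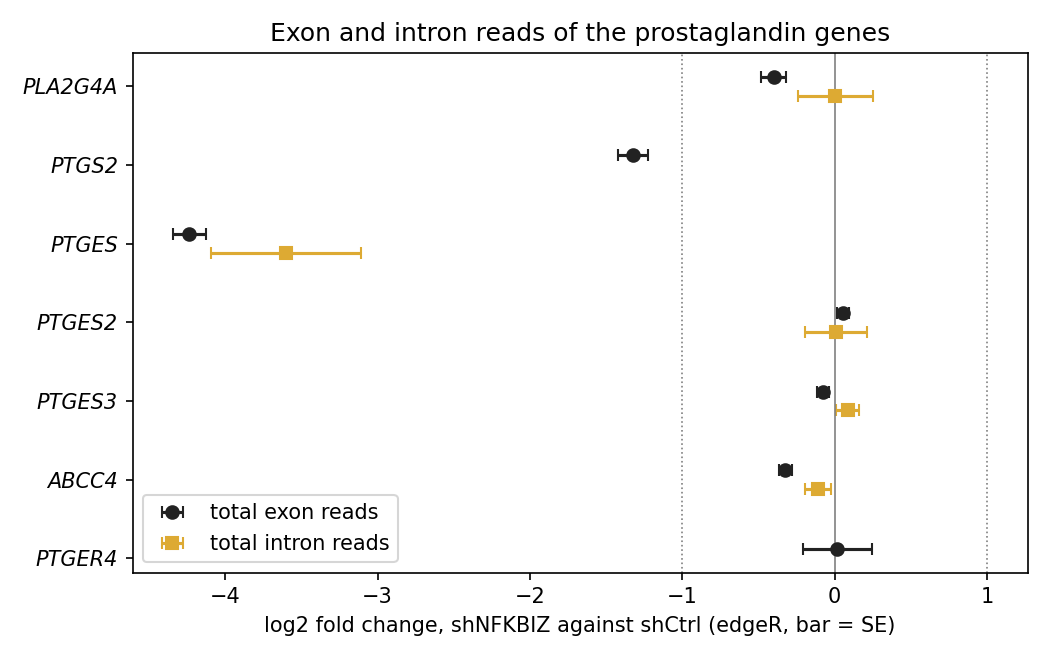
Log2 fold change of shNFKBIZ against shCtrl (horizontal axis, bars are SE) from total exon reads (black) and total intron reads (yellow) for the tested genes, with dotted lines at a 2-fold change. PTGES lay at -4.24 in exons and -3.60 in introns. PTGS2 and PTGER4 had too few intron reads for the fit.

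A wider list of 46 eicosanoid genes, compiled by hand, was tested on the same exon reads. This list too was chosen with earlier results of these data known, so its adjusted p-values are given as a description. Of these, 23 had enough reads. MGLL and AKR1B1 fell past the threshold and none rose past it. This was 2 of 23, beside 8.96% of all genes past the threshold and 5.12% lower, so nothing is read from the count. A further 7 were lower and 8 higher by less than 2-fold with an adjusted p under the limit, and 6 were not called. The share at any fold change was thus 17 of 23, beside 65.3% of all genes, and the median log2 fold change was -0.07.

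Among 11 phospholipases and lipases, 6 were tested. MGLL, the monoacylglycerol lipase that can supply arachidonic acid from 2-arachidonoylglycerol, was at 15.9, 16.1 and 14.1 TPM in shCtrl and at 3.91, 4.56 and 3.78 TPM in shNFKBIZ. On the log2 scale the change was -2.00 ± 0.0754 (SE, edgeR adjusted p 1.63e-14). The fall in its intron reads was smaller (-0.75, SE 0.125), and the exon against intron difference of -1.23 (SE 0.143) was itself past the threshold (edgeR adjusted p 7.7e-12). Other phospholipases moved in both directions. PLA2G4C, a relative of PLA2G4A, was higher by 0.79 (SE 0.113), PLA2G15, a lysosomal enzyme, had 0.02 (SE 0.0622) and PLA2G12A -0.28 (SE 0.0744). For PLA2G4C the exon against intron difference was 0.61 (SE 0.151), opposite in sign to that of MGLL. It was within the adjusted p limit but not past the threshold. PLA2G4B was higher by 0.92, but only 23.8% of its exon reads were unique. For PLA2G12A this share was 68.9%. PLA2G4B, PLA2G4C and PLA2G12A were named after their values had been seen.

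Of 9 terminal synthases and reductases other than the prostaglandin E synthases, 6 were tested. All 6 were under the adjusted p limit at any fold change, beside 65.3% of all genes, but AKR1B1 alone was past the 2-fold threshold. AKR1B1, aldose reductase, which also makes prostaglandin F2α, was at 61.9, 66.9 and 68.5 TPM in shCtrl and at 23.3, 21.4 and 23.6 TPM in shNFKBIZ. On the log2 scale the change was -1.61 ± 0.0571 (SE, edgeR adjusted p 3.24e-16), and its intron reads fell by 1.32 on the log2 scale (SE 0.227). The carbonyl reductases CBR1 and CBR3, which convert prostaglandin E2 to F2α or reduce related carbonyls, moved little. CBR1 was higher by 0.19 (SE 0.0424, edgeR adjusted p 0.00039) and CBR3 lower by a log2 fold change of -0.31 (SE 0.0992, edgeR adjusted p 0.00857), with libraries that overlapped in TPM. The CBR3 value was -0.05 (SE 0.237, edgeR adjusted p 0.875) on junction reads, -0.22 (edgeR adjusted p 0.0546) with library size alone and -0.23 (edgeR adjusted p 0.0695) without the second shCtrl library. PRXL2B, prostamide/prostaglandin F synthase, rose by 0.63 (SE 0.0945, edgeR adjusted p 4.84e-06). TBXAS1, thromboxane synthase, and AKR1C3 had 0.77 and -0.68, and were named after their values had been seen. Unique reads made up 81.0% of the exon reads of CBR1 and 84.0% of those of AKR1C3. PTGDS and PTGIS, the synthases of prostaglandins D2 and I2, had no exon reads. HPGDS also had none, although 107 and 117 reads lay in its introns.

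For inactivation and uptake, 3 of 4 genes were tested. PTGR1, which reduces 15-keto prostaglandins, was lower with a log2 fold change of -0.52 (SE 0.0527, edgeR adjusted p 1.47e-08), and its exon against intron difference was -0.44 (SE 0.0905, edgeR adjusted p 4.99e-05). PTGR3 was higher by 0.41 (SE 0.0532, edgeR adjusted p 5.93e-07), but on junction reads, which were 1.57% of its exon reads, the value was -0.13 (SE 0.309). The exon against intron difference of PTGR3 was 0.38 (SE 0.143, edgeR adjusted p 0.0328), opposite in sign to that of PTGR1. SLCO2A1, the prostaglandin uptake transporter, had no exon reads. With HPGD also at 0, neither the uptake carrier nor the dehydrogenase of prostaglandin inactivation was detected at this depth.

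Of 7 further prostanoid receptors, 4 were tested and none was past the threshold. PTGFR, the receptor of prostaglandin F2α, had 3.77, 4.29 and 3.19 TPM in shCtrl and 1.98, 2.59 and 2.25 TPM in shNFKBIZ. Its log2 fold change was -0.81 (SE 0.143). PTGIR, the prostacyclin receptor, was higher by 0.50 (SE 0.144). The intron reads of PTGIR, 25 and 55 in sum, rose past the threshold, by 1.04 (SE 0.335). They met the read filter only through the shNFKBIZ libraries. Both receptors were named after their values had been seen, so no p-value is printed for them. The 4 tested receptors, like PTGER4, were at most 11.3 TPM.

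In the lipoxygenase branch, which makes leukotrienes from the same fatty acid, 3 of 12 genes were tested. LTA4H, the hydrolase that forms leukotriene B4, was lower with -0.26 (SE 0.0381, edgeR adjusted p 3.6e-06). ALOX5, at the head of the branch, had no exon reads. Of the microsomal glutathione transferases, relatives of PTGES, only MGST3 was tested, at 0.25 (SE 0.0571, edgeR adjusted p 0.000651), in the direction opposite to PTGES.

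**Figure D4:**
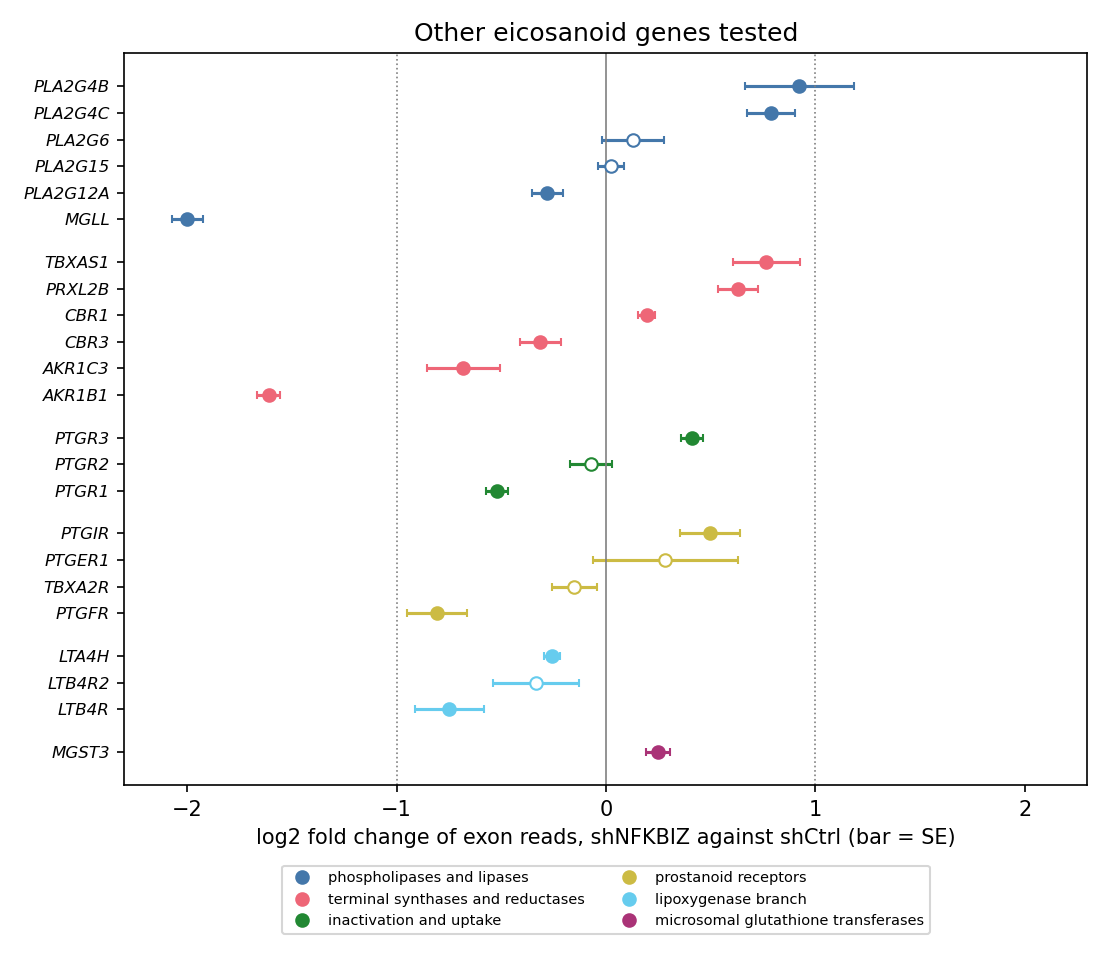
Log2 fold change of exon reads (horizontal axis, bars are SE, dotted lines at 2-fold) of the 23 tested genes of the wider list, grouped by role. Filled dots passed the adjusted p limit of 0.05 and open dots did not. MGLL at -2.00 and AKR1B1 at -1.61 lay beyond the 2-fold line, and none did on the other side.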

How the data were processed

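RNA-seq was done on total RNA of 3 shCtrl and 3 shNFKBIZ LOX-IMVI libraries, grouped by their titles. The authors mapped the reads to hg38 (GRCh38) in CLC Genomics Workbench with default settings and without using strand, and deposited whole-number counts of exon, intron and exon-exon junction reads per gene. The sequencing provider differs between the labels and the methods and is not given here. TPM was computed again from these exon counts and the listed exon lengths, and the deposited TPM was matched to within 4.98e-07.

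Counts were filtered with filterByExpr, scaled by TMM and tested with glmQLFit (robust) and glmQLFTest of edgeR 4.0.16 (R 4.3.3). Tests were two-sided, and p-values were adjusted over all genes tested by the Benjamini-Hochberg method. The SE is the size of the log2 fold change divided by the square root of F. Simulated data were used to check the main fits of exon reads, of intron reads and of the interaction. The alternatives were not checked in this way. Where nothing but the libraries' numbers separates them, p-values measure the spread between libraries, which may be technical. Replicates were not copies (chi-square per degree of freedom 1.69 to 4.18). Intervals are exact (Clopper-Pearson on summed reads) and, like the floor of 3 reads, cover counting error only. Ratios of summed reads and their intervals are scaled by library totals without TMM factors, unlike the log2 fold changes. Upstream sequences are from RefSeq, where all 10 genes matched.

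The genes and lists were chosen with earlier results of these data known. The named genes were the 10 genes, NFKBIZ, genes of the wider list past the threshold and the 8 others with the highest mean TPM, overlapping genes with reads, and the markers. One marker is not reported here. As alternatives, use was made of RLE factors, of library size alone, no filter, at least 10 counts in every library, DESeq2 1.42.0, unique reads, gene reads, a replicate block, other limits and leaving out each library. Junction reads were added after the data had been seen.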

Additional observations from a re-analysis of the deposited data

How the results depend on the processing

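With no fold change limit the count of called genes was 4 in place of 2 among the prostaglandin genes and 17 in place of 2 in the wider list. All other alternatives, including RLE factors, library size alone, DESeq2, unique reads, gene reads and junction reads, gave 2 among the prostaglandin genes. In the wider list they gave 2 or 3. Leaving out each library gave 2 among the prostaglandin genes and 2 to 3 in the wider list. The fall in the PTGES share was -3.17 percentage points when reads were not divided by length, because PTGES has the shortest summed exon length of the 3 genes, and -6.20 to -5.61 without single libraries. The difference in the PTGS2 share was 0.156 to 0.345 without single libraries. Of the prostaglandin genes 1 was called on introns and 0 in the interaction under each alternative, and the alternatives were not run for the wider list on these readouts. With the replicate block 2 of the prostaglandin genes and 2 of the wider list were past the threshold, as without it. At any fold change the block gave 5 prostaglandin genes in place of 4, PTGES3 being the addition. Library size alone and the fits without the second shCtrl or the third shNFKBIZ library also gave 5. On junction reads 3 of 6 tested prostaglandin genes were within the adjusted p limit at any fold change, in place of 4 of 7. In the wider list it was 11 of 17, in place of 17 of 23. The shares of all genes at any fold change were not counted in these settings, so nothing is read from these counts. Correlations of deviations were -0.0535, -0.0138 and 0.0757 for equal replicate numbers, and -0.14 to 0.151 for unequal ones. These values showed no pairing by number but cannot exclude it.

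Small log2 fold changes changed sign, and the cause was not tested. PTGES3 had 0.013 with library size alone, where the median of all genes was 0.094 in place of 0.0043. PLA2G15 had -0.0039 with gene reads and -0.045 with junction reads, and PTGR3 -0.13 with junction reads. On introns PTGES2 had -0.0021 with unique reads and -0.021 with TMM factors of the exon reads, and PLA2G4A -0.026 with the latter. Without single libraries the intron values lay between -0.14 and 0.19 for PTGES2 and -0.14 and 0.18 for PLA2G4A, between -4.29 and -3.33 for PTGES, the exon value of PTGER4 between -0.061 and 0.10, and the interaction between -0.84 and 0.17 for PTGES and -0.14 and 0.18 for PTGES2. Depth limits the intron readout of PTGS2 and PTGER4 and any statement on PTGS1, HPGD and PTGER2.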
